A study of Danio rerio with 31 samples.

Results

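Control morphant zebrafish larvae were compared with uninjected wild type (WT) larvae at 48 and 50 hours post fertilization (hpf). The comparison held 4 of the 31 arrays of the series, which were taken by their labels: 2 control MO arrays and 2 WT arrays, 1 of each group at each age. Both groups were AB strain larvae raised at 28 °C in a light/dark cycle, and each array carried whole-animal RNA from a pool of larvae. The control MO larvae had received 9 ng of a standard control morpholino at the one- to two-cell stage, which the labels call the control of the mitfa morpholino. The 3 mitfa MO arrays, 1 at 48 hpf and 2 at 50 hpf, came from larvae injected with 9 or 13 ng of a morpholino against mitfa, and they share the slides and the WT arrays with this comparison. The question was what the injection of a control morpholino changes on its own, in size and in direction, and whether both ages show it.

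A morpholino is a synthetic oligomer that pairs with a transcript and blocks its translation or its splicing, while a standard control oligomer is designed to have no target in the fish. Injected embryos are nevertheless known for side effects that are shared between unrelated morpholinos, among them cell death, interferon and stress responses and slower development. At 2 days the zebrafish larva is hatching, its first photoreceptors are switching on their light-sensing genes, its pigment cells are filling, and the liver and pancreas are starting to make their secreted proteins. Genes of all these systems are therefore described below by role.

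Between 71.3% and 75.3% of the spots were well above background on each of the 7 arrays, and none was saturated. Probes that stood well above background on 75% or more of the 7 arrays were tested, 30507 in all, and 10386 genes with a current NCBI symbol were read at their brightest such probe. The WT array at 50 hpf stood furthest apart, with 46 probes at least 4-fold away from all 6 other arrays, against 0 to 21 on each of the others. Both 48 hpf arrays lay on one slide and both 50 hpf arrays on another, so that age and slide cannot be told apart, and on each slide WT held position 1 and control MO position 2, so that group and position cannot be told apart either. Levels are given as the log2 of a probe's normalized signal, at 48 and then 50 hpf, and differences are control MO minus WT on that log2 scale.

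No probe passed the adjusted p of 5% in the limma fit of the 7 arrays with age as a term, of the 30507 tested (0% called). The lowest adjusted p was 0.073, and 4880 probes, or 16% of those tested, had an unadjusted p under 0.05, of which 2740 were higher and 2140 lower in control MO larvae. By the methods' t-test on the 4 arrays, not paired by age, 47 probes had p under 0.02 and a change over 2-fold, 33 of them higher. After the Benjamini-Hochberg adjustment of that test 2 probes passed, neither of them among the 47. Their differences were only -0.05 and -0.1, with equal values at both ages. With 2 arrays a group, an exact permutation test that ignores age cannot give a two-sided p below 0.333. Swaps within an age alone allow fewer arrangements still. No source says whether the pools of a group came from separate clutches, so that the p-values measure the spread between pools only. In the limma fit that spread includes the mitfa MO pools. The differences of single genes below are therefore given with their size at each age, and none of them passed the adjusted test.

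The differences repeated between the ages more often than they turned round. In control MO larvae 92 probes were at least 2-fold higher than in WT at both 48 and 50 hpf (0.302% of the probes read) and 141 were at least 2-fold lower at both ages (0.463%), whereas 49 probes passed 2-fold in opposite directions. The same count made between the ages, 50 minus 48 hpf in control MO larvae and in WT larvae, gave 71 probes higher, 215 lower and 55 in opposite directions, so that the injected and uninjected larvae of one age differed about as widely as larvae of the 2 ages and slides. The median absolute log2 difference between control MO and WT was 0.233 at 48 hpf and 0.247 at 50 hpf, against 0.207 between the ages in control MO larvae and 0.229 in WT larvae. Across probes, the differences at 48 and 50 hpf correlated with r = 0.351 (30507 probes, which share the slide and array of each age and are not independent replicates), from 0.261 in the dimmest of 4 equal bins of mean signal to 0.447 in the brightest. A separate fit of whether the difference changed between the ages called 0 probes, with 1505 at an unadjusted p under 0.05, or 4.93% of those tested. The only residual in that fit came from the 2 mitfa MO arrays at 50 hpf, so that it cannot show whether the ages agree.

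**Figure D1:**
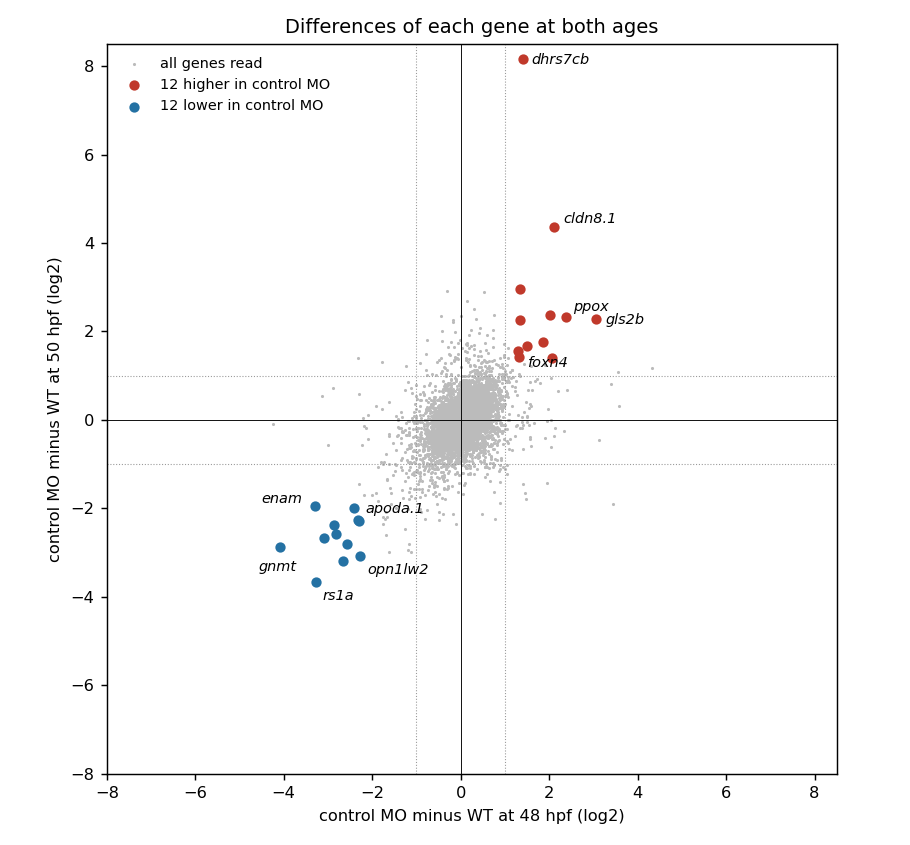
Each point is 1 gene, with control MO minus WT (log2) at 48 hpf on the x axis and at 50 hpf on the y axis; dotted lines mark 2-fold. Red points are the 12 genes with the largest difference in the higher direction at both ages and blue points the 12 in the lower direction, from foxn4 (1.3 and 1.56) and ppox (2.38 and 2.33) to gnmt (-4.09 and -2.88) and rs1a (-3.28 and -3.67).

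Several photoreceptor genes stood low in control MO larvae. The red cone opsin gene opn1lw2, whose protein absorbs light in long-wavelength cones, had log2 signals of 3.90 at 48 hpf and 5.94 at 50 hpf in control MO larvae, against 6.17 and 9.02 in WT larvae. The difference was -2.28 at 48 hpf (4.85-fold) and -3.08 at 50 hpf (8.45-fold), and the limma fit gave -2.68 ± 0.46 (SE, adjusted p = 0.197). The retinoschisin gene rs1a, which encodes an adhesion protein secreted by photoreceptors, had 5.89 and 7.77 in control MO larvae, against 9.17 and 11.44 in WT larvae. The recoverin genes, whose calcium-binding proteins tune phototransduction, were lower too. rcvrna had 5.44 and 6.23 in control MO larvae, against 7.19 and 8.58 in WT larvae, and rcvrn2 had 6.48 and 7.27 in control MO larvae, against 8.19 and 9.50 in WT larvae. Both genes were lower at a further probe at both ages. In each of these 4 genes the level was higher at 50 than at 48 hpf within both groups, and the control MO level at 50 hpf was still under the WT level at 48 hpf.

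The genes foxn4, atoh7, ccndx and rx1 stood higher. The forkhead gene foxn4, which acts in retinal progenitors, had 11.89 and 11.77 in control MO larvae, against 10.59 and 10.21 in WT larvae, and all 4 of its probes were higher at both ages. The difference was 1.3 at 48 hpf (2.47-fold) and 1.56 at 50 hpf (2.94-fold; fit 1.43 ± 0.18, SE; adjusted p = 0.185). atoh7, the bHLH gene that precursors of retinal ganglion cells require, had 10.83 and 10.32 in control MO larvae, against 9.59 and 8.86 in WT larvae. The cyclin gene ccndx had 9.12 and 8.77 in control MO larvae, against 7.81 and 7.35 in WT larvae. Within both groups the level of these 3 genes was lower at 50 than at 48 hpf. rx1, an eye-field homeobox gene, had 9.24 and 8.82 in control MO larvae, against 8.29 and 8.32 in WT larvae.

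Over the list of retina and visual cycle genes, 36 of 52 members were read, and 21 of them (58.3%) were lower at both ages and 9 (25%) higher, against 34.4% lower and 33.1% higher over all genes read. At least 1.5-fold at both ages, 7 members were lower and 2 higher, where 1.97% and 1.8% of all genes were. The median of the list was -0.16 at 48 hpf and -0.25 at 50 hpf, against 0.02 and -0.03 over all genes. In RNA of whole larvae, fewer cells of a type and less RNA per cell cannot be told apart.

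The mitfa MO larvae, read against the same WT arrays, showed the photoreceptor genes low as well, in a comparison that called 871 probes (2.86%). opn1lw2 had log2 signals of 4.51 at 48 hpf and 5.69 and 5.27 at 50 hpf, and the fitted mitfa MO minus WT difference was -2.75 (adjusted p = 0.0474), beside -2.68 for control MO minus WT. rcvrn2 was at -2.93 in that comparison (adjusted p = 0.0333), beside -1.97, and rs1a was at -4.78 (adjusted p = 0.0407), beside -3.48. foxn4 and atoh7 were nearer to WT in mitfa MO larvae, with foxn4 at 0.66 (adjusted p = 0.0746), beside 1.43, and atoh7 at 0.66 (adjusted p = 0.165), beside 1.35. The 2 comparisons share the WT arrays, so that a departure of those arrays enters both, and their difference was not tested.

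**Figure D2:**
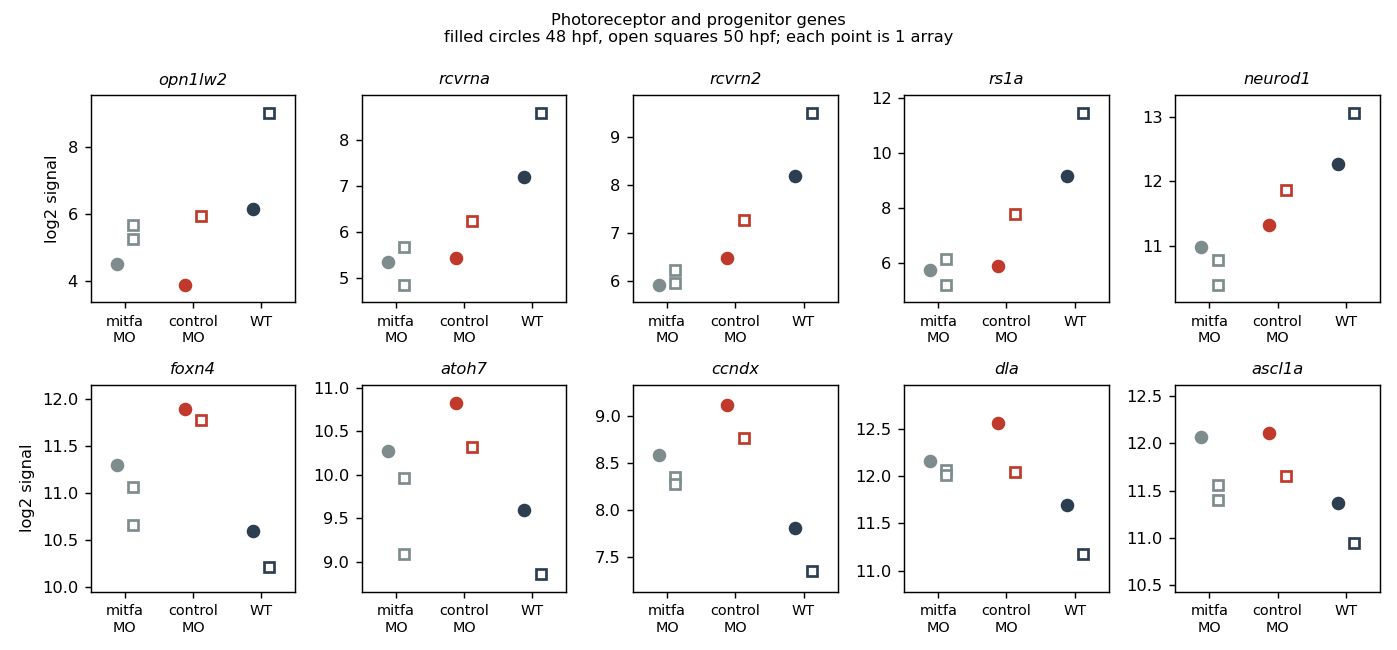
Log2 signal of 10 genes on each of the 7 arrays, with mitfa MO, control MO and WT larvae from left to right, filled circles at 48 hpf and open squares at 50 hpf; each panel has its own scale. In the upper row (opn1lw2, rcvrna, rcvrn2, rs1a and neurod1) both control MO arrays lie under both WT arrays, and in the lower row (foxn4, atoh7, ccndx, dla and ascl1a) both lie above them. The 10 genes are a selection of those named in the text, made with their differences at both ages known.

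Genes of the neuron and glia list differed in both directions. The Delta ligand gene dla, which neural precursors use to hold their neighbours back from differentiation, had 12.57 and 12.05 in control MO larvae, against 11.70 and 11.18 in WT larvae, and its difference was nearly the same at both ages (0.86 and 0.87). The proneural genes ascl1a (0.74 and 0.71) and neurod4 (0.83 and 0.78) were higher as well. neurod1, a bHLH gene that is also active in young photoreceptors, had 11.32 and 11.87 in control MO larvae, against 12.26 and 13.05 in WT larvae. Also lower were the myelin gene plp1b at -0.78 and -1.03 and the synaptic vesicle fusion gene snap25b at -0.42 and -0.77, although only 1 of the 2 snap25b probes was lower at both ages. Of 35 neuron and glia genes read, 13 were higher (37.1%) and 8 lower (22.9%) at both ages, against 33.1% and 34.4% of all genes, and 5 were higher and 2 lower by at least 1.5-fold, where 1.8% and 1.97% of all genes were.

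Cell cycle and ribosome assembly genes were higher by small amounts in many members. Of 31 genes of the cell cycle and DNA replication, 22 were higher at both ages (71%) and 2 were lower, against 33.1% and 34.4% of all genes, and the median difference was 0.26 at 48 hpf and 0.27 at 50 hpf. No member reached 1.5-fold at both ages. The G1 cyclin gene ccnd1 had 11.87 and 11.61 in control MO larvae, against 11.41 and 10.82 in WT larvae, and the S phase cyclin gene ccne2 had 7.82 and 7.70 in control MO larvae, against 7.39 and 6.89 in WT larvae. The proto-oncogene myca was at 0.60 and 0.45. Of 44 ribosome biogenesis genes, whose products build ribosomal subunits in the nucleolus, 28 were higher at both ages (63.6%) and 1 was lower, with medians of 0.18 and 0.14. Among them heatr1 (0.43 and 0.42) and rrp12 (0.39 and 0.40) differed evenly at both ages, and nop58 was at 0.48 and 1.32. In mitfa MO larvae, 14 of the same 44 genes passed the adjusted test as higher than WT, where 1.84% of all genes did, and the list's median there was 0.67.

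The genes of oxidative phosphorylation lay on the other side. Of 76 subunits and assembly proteins of the respiratory chain and the ATP synthase, 55 were lower in control MO larvae at both ages (72.4%) and 2 were higher (2.63%). Over all genes, 34.4% were lower and 33.1% higher at both ages. The median of the list was -0.15 at 48 hpf and -0.19 at 50 hpf. The shift was small in nearly every gene, and 1 member passed 1.5-fold at both ages: cox4i2, a subunit of cytochrome c oxidase, had 7.27 and 7.81 in control MO larvae, against 8.0 and 8.80 in WT larvae. cox6b1 was at -0.80 and -0.50 and the succinate dehydrogenase gene sdhdb at -0.36 and -0.50. In mitfa MO larvae the list's median was 0.05, and 0 of the 76 genes passed the adjusted test in either direction, where 1.84% of all genes passed as higher and 1.03% as lower. Cytosolic ribosomal protein genes had medians of -0.04 and -0.01, with 34 of 77 lower and 15 higher at both ages, but scaling the arrays to their 75th percentile in place of quantile normalization left 72 lower, with medians of -0.21 and -0.34, so that no direction is given for them.

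**Figure D3:**
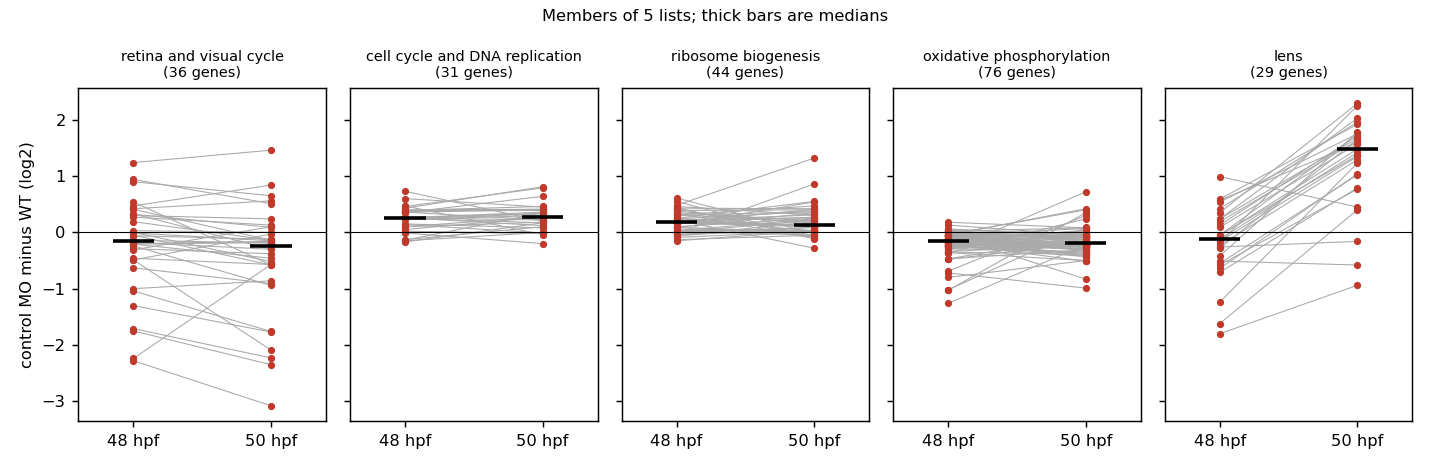
Control MO minus WT (log2, y axis) at 48 and 50 hpf for every member read of 5 gene lists; each line joins the 2 values of 1 gene and thick bars are medians. Cell cycle and ribosome biogenesis genes lie mostly above 0 at both ages and oxidative phosphorylation genes mostly below it, the retina list spreads to -3.08, and the lens genes turn between a median of -0.12 at 48 hpf and 1.48 at 50 hpf.

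Of the genes of cell survival and death, mdm2 and casp8 stood higher in control MO larvae. mdm2, an E3 ubiquitin ligase gene, had log2 signals of 10.43 at 48 hpf and 9.82 at 50 hpf in control MO larvae, against 9.35 and 9.30 in WT larvae. casp8, the initiator caspase of the death receptor pathway, had 7.06 and 6.93 in control MO larvae, against 5.87 and 5.97 in WT larvae. In both genes the mitfa MO arrays lay above both other groups, and their differences from WT were 2.36 for mdm2 (adjusted p = 0.0305) and 2.68 for casp8 (adjusted p = 0.00814), beside 0.80 and 1.07 for control MO minus WT (adjusted p = 0.235 and 0.185).

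Among 22 genes read of the apoptosis list, which does not hold casp8, 5 were higher (22.7%) and 7 lower (31.8%) at both ages. Over all genes the shares were 33.1% and 34.4%. No member of that list passed 1.5-fold at both ages. Among 16 interferon response genes, 9 were higher and 4 lower, but 75th percentile scaling left 6 higher and 6 lower, with medians of 0.03 and 0.00, so that no direction is given for the list. The guanylate-binding protein gene gbp1 had 10.13 and 9.50 in control MO larvae, against 8.08 and 8.55 in WT larvae, whereas the mitfa MO arrays held 7.63, 8.62 and 8.17. The antiviral gene mxa had 3.13 and 3.59 in control MO larvae, against 2.80 and 2.76 in WT larvae, of which the second was not well above background, and psmb9a, an immunoproteasome subunit, was at 0.63 and 0.36. Inflammation, heat shock, oxidative stress and integrated stress response genes had list medians between -0.14 and 0.13 at both ages. Of 25 integrated stress response genes, 12 were lower (48%) and 4 higher (16%) at both ages, where 34.4% and 33.1% of all genes were. In these 4 lists 1 member passed 1.5-fold at both ages. The endoplasmic reticulum chaperone gene calr was lower at -0.82 and -0.68, and a further calr probe read -6.82 at 48 hpf and -0.47 at 50 hpf. The immediate early gene fosab was at 2.2 and 0.66 with 4 of 4 probes higher at both ages, and the phosphatase gene dusp1 was at 0.68 and 0.45. Of 30 immediate early genes read, 10 were higher (33.3%) and 6 lower (20%) at both ages. The higher share was near that of all genes (33.1%), and the list's medians were 0.17 and -0.02. No accession in the annotation tied cdkn1a or isg15 to a probe, and il1b was not above background on enough arrays.

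mitfa, the gene whose transcript the other morpholino targets and the master regulator of melanophores, did not differ between control MO and WT by more than its spread. It had 8.46 and 7.93 in control MO larvae, against 8.47 and 7.83 in WT larvae (0.05 ± 0.13, SE; adjusted p = 0.883), and 11.95, 11.57 and 11.45 in mitfa MO larvae. Of 17 melanophore genes read, 11 were lower in control MO larvae at both ages (64.7%) and 1 was higher (5.88%), against 34.4% and 33.1% of all genes, and the list's medians were -0.23 and -0.26. The melanosome transport gene mlpha had 7.79 and 7.75 in control MO larvae, against 8.54 and 8.39 in WT larvae, and in mitfa MO larvae it had 6.81, 6.42 and 6.93. The melanocortin receptor gene mc1r (-0.54 and -0.83) and the receptor tyrosine kinase gene kita (-0.93 and -0.47, at 1 of its 2 probes) were lower as well. The iridophore purine gene pnp4a had 8.60 and 8.70 in control MO larvae, against 9.52 and 9.97 in WT larvae, ednrba, an endothelin receptor gene of iridophores, had 5.90 and 6.33 in control MO larvae, against 6.99 and 7.15 in WT larvae, and the pteridine gene gch2 of xanthophores was at -0.83 and -0.60. 3 of the 13 xanthophore and iridophore genes read were at least 1.5-fold lower at both ages (23.1%, where 1.97% of all genes were). By direction alone, 5 of the 13 were lower (38.5%) and 3 higher (23.1%) at both ages, near the shares of all genes for the lower direction (34.4%). The list's medians were -0.32 and -0.12. For ednrba the fit gave -0.96 in control MO and -0.31 in mitfa MO larvae (adjusted p = 0.206 and 0.267).

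**Figure D4:**
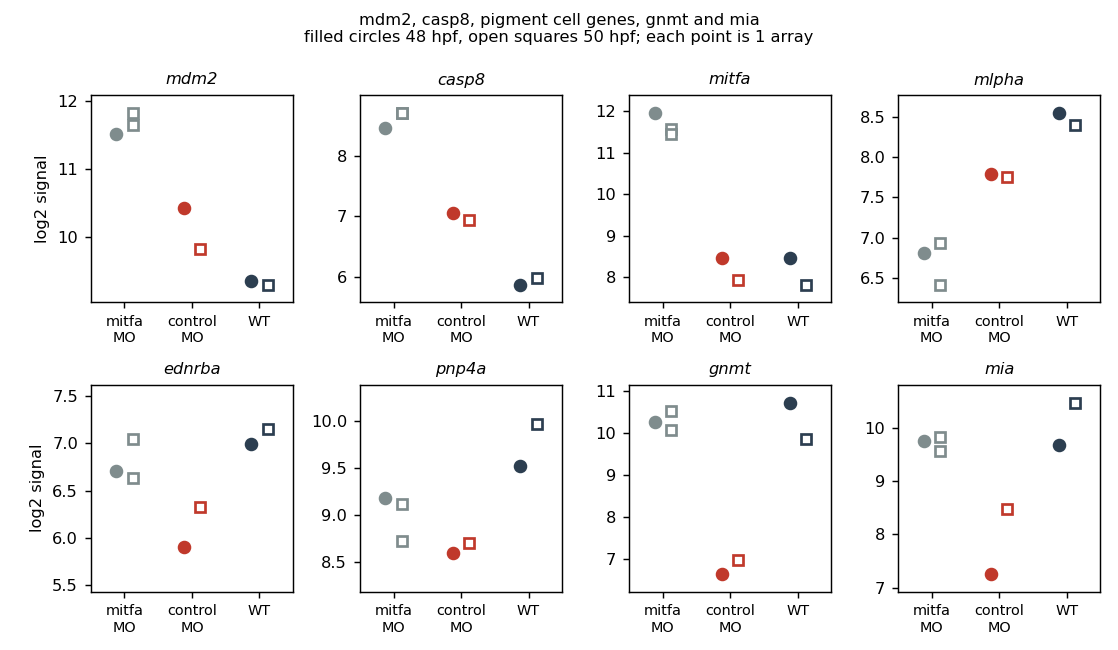
Log2 signal of 8 genes on each array, with mitfa MO, control MO and WT larvae from left to right, filled circles at 48 hpf and open squares at 50 hpf; each panel has its own scale, and the squares of casp8 in mitfa MO larvae coincide at 8.70. mdm2 and casp8 lie between WT and mitfa MO levels in control MO larvae, mitfa lies at the WT level, pnp4a lies below it, and gnmt and mia are low on the control MO arrays alone.

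Several of the largest differences had no counterpart of like size in mitfa MO larvae, although the difference between the 2 morphants was not tested. gnmt, glycine N-methyltransferase, a liver enzyme of methionine metabolism, had 6.64 and 6.98 in control MO larvae, against 10.73 and 9.86 in WT larvae, and the mitfa MO arrays held 10.26, 10.08 and 10.54. The control MO level was 17.1-fold lower at 48 hpf and 7.35-fold lower at 50 hpf (fit -3.49 ± 0.32, SE; adjusted p = 0.185), while mitfa MO minus WT was 0.02 (adjusted p = 0.972). mia, a cartilage protein gene, had 7.26 and 8.48 in control MO larvae, against 9.68 and 10.47 in WT larvae, with 9.75, 9.83 and 9.56 in mitfa MO larvae. apoda.1, an apolipoprotein D gene, was at -2.32 and -2.26, with a mitfa MO minus WT difference of -0.91 (adjusted p = 0.136). The fast muscle troponin gene tnnt3a had 14.11 and 14.26 in control MO larvae, against 14.85 and 14.87 in WT larvae, with 14.96 to 15.08 in mitfa MO larvae, and of 33 muscle genes read 10 were higher (30.3%) and 14 lower (42.4%) at both ages, near the shares of all genes. With 75th percentile scaling 6 muscle genes were higher and 20 lower, with medians of -0.14 and -0.27, against -0.01 and -0.12 as reported.

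In the higher direction the evenest large difference was that of ppox, whose enzyme protoporphyrinogen oxidase acts late in haem synthesis. It had 9.91 and 9.42 in control MO larvae, against 7.53 and 7.09 in WT larvae, or 5.20-fold and 5.02-fold higher (fit 2.35 ± 0.25, SE; adjusted p = 0.185), and its further probe shared the lowest adjusted p of the table, 0.073, with a probe that has no gene name here, with differences of 2.27 and 2.62. ppox had 8.36, 8.68 and 8.08 in mitfa MO larvae. gls2b, a glutaminase gene, had 6.40 and 5.66 in control MO larvae, against 3.34 and 3.37 in WT larvae, and 4.14, 3.73 and 3.93 in mitfa MO larvae. cmn, the calymmin gene of the notochord, was at 2.06 and 1.41, zgc:154142 at 1.87 and 1.77, the cathepsin gene ctss2.1 at 2.02 and 2.37, the sodium pump gene atp1a1a.5 at 1.35 and 2.97 and the lens connexin gene gja8b at 1.34 and 2.27. cldn8.1 (2.12 and 4.37) and dhrs7cb (1.4 and 8.17) rest on the WT array at 50 hpf, where they had log2 signals of 0.61 and 0.59, against 4.40 and 9.29 on the WT array at 48 hpf. Neither probe was well above background there, so that their differences at 50 hpf are not measured folds.

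The remaining genes of the 12 lower were tcnba, a transcobalamin gene for vitamin B12 carriage (-2.66 and -3.20), the enamel protein gene enam (-3.29 and -1.95), tmx3a (-2.29 and -2.28), tmem244 (-2.83 and -2.58), zgc:103625 (-3.09 and -2.66), zgc:153441 (-2.56 and -2.81) and zgc:109965 (-2.87 and -2.37). All 7 were also low in mitfa MO larvae, where the differences from WT lay between -2.57 for tcnba and -4.10 for zgc:153441. In the limma fit tmem244, zgc:153441 and zgc:109965 passed the adjusted test there (adjusted p = 0.0443, 0.044 and 0.0486). The genes tcnba, enam, tmx3a and zgc:103625 did not (adjusted p = 0.0979, 0.0758, 0.0628 and 0.0504).

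Some genes of the liver and pancreas stood lower at both ages. The liver fatty acid-binding protein gene fabp10a had 5.66 and 6.81 in control MO larvae, against 7.32 and 9.00 in WT larvae, and 5.96, 5.01 and 6.77 in mitfa MO larvae. The trypsinogen gene prss1 had 8.45 and 9.34 in control MO larvae, against 9.30 and 10.31 in WT larvae, and the carboxypeptidase gene cpa4 was at -1.15 and -1.53. Of 16 genes read of the digestive list, which does not hold ctrb.2, 5 were at least 1.5-fold lower at both ages (31.2%). No member was at least 1.5-fold higher at both ages. Over all genes, 1.97% were so lower and 1.8% so higher. The list's median was 0.00 at 48 hpf and -0.63 at 50 hpf. The chymotrypsinogen genes went opposite ways, with ctrb.1 at -1.25 and -2.46 and ctrb.2 at 1.49 and 1.68 (not well above background on the WT array at 50 hpf), and since these paralogues are alike in sequence their probes may each read both. Liver and plasma genes as a list had medians of -0.01 and -0.08. Of 23 read, 12 were lower (52.2%) and 6 higher (26.1%) at both ages, against 34.4% and 33.1% of all genes. The complement factor gene cfh was at -0.57 and -1.62 and the apolipoprotein gene apoa1a at 0.39 and 0.46.

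Embryonic globin genes were close between the groups with 1 exception. hbae1.1 (-0.04 and -0.13), hbae3 (-0.20 and -0.18), hbae4 (-0.20 and 0.01) and hbbe2 (-0.09 and 0.19) lay within 0.20 of WT at both ages. hbbe3 had 17.61 and 17.39 in control MO larvae, which was 0.88 and 1.39 above the WT array of the same age, and 17.66, 17.73 and 17.71 in mitfa MO larvae. The globin family is made of near-identical genes, and a probe may read several of them. The erythroid transcription factor gene gata1a was at 0.99 and 1.04 and the mitochondrial iron carrier gene slc25a37 at 0.61 and 0.49, whereas the adult globin gene hbba2 was at -0.65 and -0.72, the ammonium channel gene rhag at -0.32 and -0.84 and hemgn at -0.31 and -0.32. Of 21 erythrocyte genes read, 10 were higher (47.6%) and 6 lower (28.6%) at both ages, where 33.1% and 34.4% of all genes were.

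Lens genes differed in median at 50 hpf and hardly at 48 hpf. The median of 29 lens genes was -0.12 at 48 hpf and 1.48 at 50 hpf, and between 48 and 50 hpf the list's median changed by -0.02 within control MO larvae and by -1.51 within WT larvae. The crystallin gene crygmx had 14.29 and 14.27 in control MO larvae, against 13.71 and 12.35 in WT larvae, and mipa, a lens aquaporin gene, had 11.63 and 11.50 in control MO larvae, against 11.06 and 9.91 in WT larvae. The mitfa MO arrays held 14.14, 14.09 and 13.85 for crygmx, so that the WT array at 50 hpf was the one that stood off. mipb was at 0.54 and 1.75, and crygs1 was lower at both ages (-1.80 and -0.94, not well above background on the control MO array at 48 hpf). The heat shock gene hsp70l, which the lens also uses, had 10.85 and 10.37 in control MO larvae, against 11.27 and 8.35 in WT larvae, so that its difference turned from -0.43 at 48 hpf to 2.02 at 50 hpf.

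Signalling and metabolic genes held scattered differences. igf1, the growth factor that acts downstream of growth hormone, had 4.37 and 4.77 in control MO larvae, against 5.24 and 6.41 in WT larvae, and 4.23, 4.85 and 4.59 in mitfa MO larvae (mitfa MO minus WT, adjusted p = 0.0474). The growth hormone receptor gene ghra was higher (0.68 and 1.02, at 1 of 2 probes), as was igfbp1b (0.57 and 0.70), while igfbp5a was lower (-0.62 and -1.08). The cholesterol synthesis gene cyp51 (0.57 and 1.08) was higher, whereas the LDL receptor gene ldlra (-0.37 and -0.97) and the desaturase gene fads2 (-0.41 and -0.89) were lower, and 15 of 26 genes of that list were lower (57.7%) and 5 higher (19.2%) at both ages, where 34.4% and 33.1% of all genes were. The collagen cross-linking gene loxa was at -0.95 and -1.39, the cartilage collagen gene col10a1a at -1.76 and -0.99, the proteoglycan gene bgna at -0.75 and -0.81 and the fin fold gene and2 at -0.52 and -0.47. Of 25 matrix genes read, a list that does not hold loxa, 13 were lower (52%) and 6 higher (24%) at both ages. Among the higher were the fibronectin genes fn1b (0.29 and 0.46) and fn1a (0.20 and 0.20) and the collagen gene col11a1a (0.17 and 0.49). The lymphatic receptor gene flt4 was at 0.75 and 0.61.

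Clock genes, the subject of the wider series, had medians of -0.02 at 48 hpf and -0.05 at 50 hpf over 35 genes, with 9 higher (25.7%) and 11 lower (31.4%) at both ages and 2 at least 1.5-fold lower (5.71%), where 33.1%, 34.4% and 1.97% of all genes were. Those were tefb, a PAR bZIP gene of the clock output, with 6.56 and 7.30 in control MO larvae, against 7.43 and 8.25 in WT larvae, and the nuclear receptor gene rorab, with 9.39 and 9.69 in control MO larvae, against 10.05 and 10.73 in WT larvae. The light-induced period gene per2 had 6.72 and 6.43 in control MO larvae, against 6.49 and 6.21 in WT larvae, or 0.23 and 0.22 (adjusted p = 0.511). per3 was at 0.24 and 0.39, bhlhe40 at 0.32 and 0.31 and per1a at -0.43 and -0.88, although only 1 of 2 per1a probes was lower at both ages. Among 46 hox genes, 25 were higher (54.3%) and 10 lower (21.7%) at both ages, from hoxb1a (0.64 and 1.00) and hoxb1b (0.59 and 0.50) to hoxd11a (-0.84 and -0.60).

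**Figure D5:**
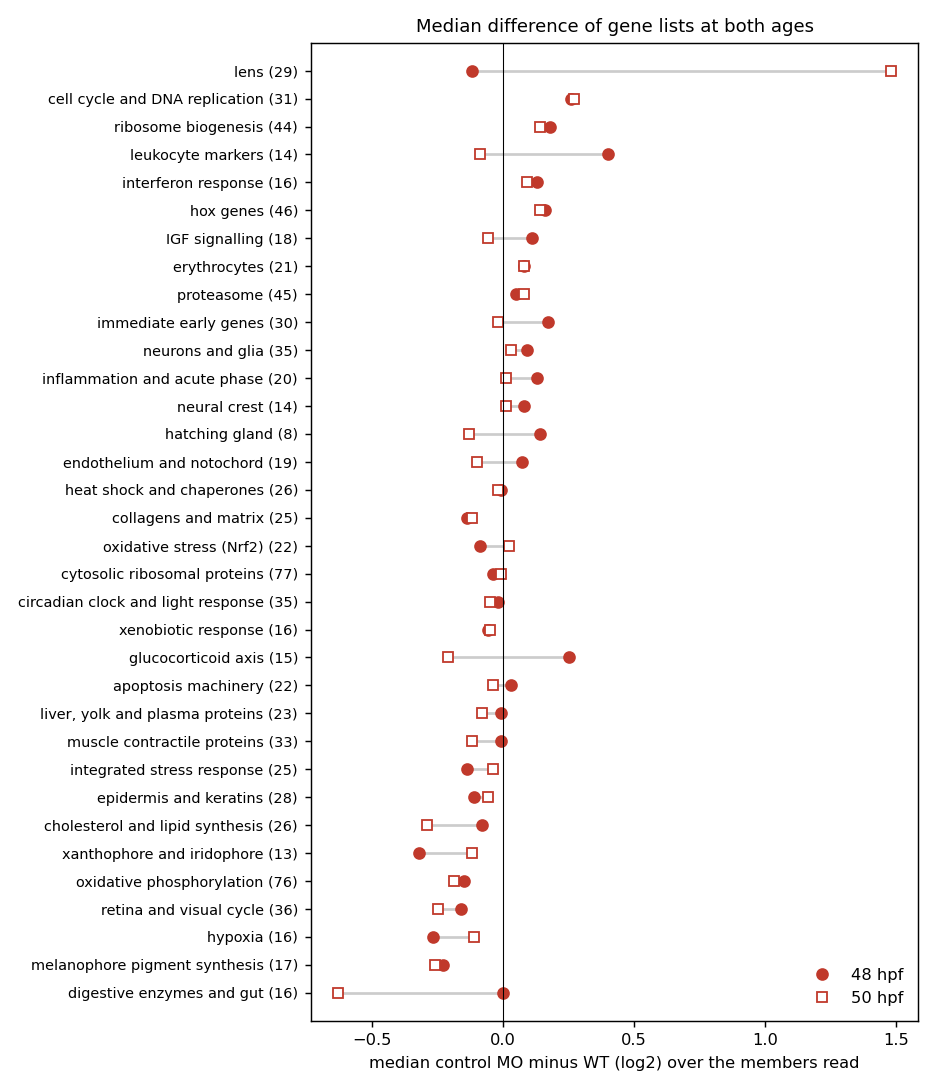
Median control MO minus WT (log2, x axis) of gene lists, with the number of genes read in brackets, at 48 hpf (filled circles) and at 50 hpf (open squares). Most lists lie within 0.3 of 0, the medians of the cell cycle and ribosome biogenesis lists are above 0 at both ages, those of the melanophore, retina and oxidative phosphorylation lists are below 0 at both, and the lens and digestive lists differ between the ages.

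Genes above background in one group alone were few and dim. Of the 11482 genes matched, 16 were well above background on both control MO arrays and on neither WT array, and 29 the other way round. Among all 43603 probes, 71 and 173 were so. Detection itself differed between the arrays. At 48 hpf 32679 probes were well above background on the WT array and 31545 on the control MO array, and at 50 hpf 31034 and 31717. The counts of the 2 directions therefore cannot be compared as they stand. Folds for these genes are lower bounds on the mean of the 2 ages, so that the bound at a single age can be smaller. They are taken against the lowest signal well above background on each dim array or the gene's own signal where that was higher. The genes were not in the test. The growth hormone-releasing hormone gene ghrh was at least 4.32-fold higher in control MO larvae, with a mean log2 signal of 4.81 in control MO larvae and a measured mean of 1.34 in WT larvae. The gene next in that order, ms4a17a.1, had 4.90 at 48 hpf and 2.98 at 50 hpf in control MO larvae, against 2.17 and 2.98 in WT larvae, so that only the age of 48 hpf showed a difference. In the other direction si:ch211-225k7.5 was at least 3.63-fold lower in control MO larvae, hyal6, a hyaluronidase gene, at least 2.94-fold lower, the protocadherin gene pcdh8 at least 2.25-fold lower and the relaxin gene rln3a at least 2.2-fold lower. In WT larvae si:ch211-225k7.5 had 6.10 and 3.27, and rln3a had 3.03 and 4.89. The lowest signals well above background on the control MO arrays were 2.84 and 2.81, so that each of these 2 bounds rests mainly on 1 age. The tryptophan dioxygenase gene tdo2a had 0.78 and 2.48 in control MO larvae, against 2.67 and 5.63 in WT larvae, and a bound holds at 50 hpf alone, since the WT signal at 48 hpf was under the lowest signal well above background on the control MO array.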

How the data were processed

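Whole-larva RNA had been labelled with Cy3 by the authors, hybridised to 1-colour Agilent 4x44K zebrafish arrays and read by Agilent Feature Extraction (10.5.1 per the labels, 10.7.3.1 per the file headers). Each deposited array file holds spot intensity values, of which the processed signal was used, already background-corrected by that software. The deposited table of log2 values was made by the authors by quantile normalization in GeneSpring and served as an alternative. The methods give 40 larvae a pool and the supplementary methods 50.

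The log2 of the processed signal was taken, outlier spots were left out, replicate spots were averaged, and quantile normalization was run over the 7 arrays at 48 and 50 hpf (limma 3.58.1, R 4.3.3). Probes that stood well above background on 75% or more of the arrays were fitted with arm and age as terms (lmFit and eBayes, 3 residual degrees of freedom), and p-values were adjusted by Benjamini and Hochberg's method to a 5% limit. The mitfa MO arrays lend the fit their spread. Median signals ran from 41.9 to 60.4 over the arrays, and their number limits the precision. The fit was tested on simulated data: of 63 probes changed 2-fold (1 on the log2 scale) among 30473, 30 were called, and of 67 changed by 2 on that scale, 63 were called. The simulated noise was independent between probes, had no array effects and was drawn from the variances of the fit itself. Those shares are therefore not the power in the real arrays, where gnmt at -3.49 was not called.

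Of 43603 probes, 16624 were matched to 11482 genes through their accession, and 26979 were not named. A gene was read at its brightest tested probe. Named genes were the 12 higher and 12 lower with the largest smaller difference of the 2 ages, up to 3 members of each list in each direction, up to 8 genes above background in 1 group alone, and mdm2, cdkn1a, mitfa, isg15, il1b, per2, hsp70l and the embryonic globins. Some genes of this rule and a gene list are not reported here. The genes and lists were chosen with earlier results of these data known. Other normalizations, background corrections, detection filters, sample sets and variance priors were tried, as well as the methods' t-test and leaving out each array. The 24 arrays of the time course were not used here.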

Additional observations from a re-analysis of the deposited data

Results flagged for a closer look

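At 48 and 50 hpf the control MO minus WT difference had opposite signs in 4 of the named genes and in the median of the lens list. Most named genes were chosen for a shared sign at both ages, so that this count does not measure how often the ages disagreed. Over all probes read, 66.5% had the same sign at both ages. In none of the 4 genes was the change between the ages called by the fit of that change, whose residual came from mitfa MO arrays alone. The change of the list's median was not tested. The lens list had a median of -0.12 at 48 hpf and 1.48 at 50 hpf, and hsp70l differences of -0.43 and 2.02. In both, the WT array at 50 hpf was the one away from the other 6 arrays. The other 3 were small: mitfa at -0.01 and 0.10, hbae4 at -0.20 and 0.01, and hbbe2 at -0.09 and 0.19.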

How the results depend on the processing

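The count of called probes, 0 as reported, stayed 0 on the deposited values, with 75th percentile scaling, without a filter, with detection on both arrays of either group, and with the 4 arrays normalized or fitted alone, with or without age. It was 5 with normexp (offset 50), 2 with detection on all 7 arrays, 4 with a variance trend, 1 with no age in the model (no replicate block), 2 by the methods' t-test after adjustment (both differences no larger than 0.10, with equal values at both ages) and 47 at its own limits, and 0 to 1 with each array left out. The 1 call without the control MO array at 50 hpf was the second calr probe. The further ppox probe and sat2b, a gene named after its values were seen, were among the calls with normexp and with the trend. The 233 probes changed 2-fold the same way at both ages became 33 with normexp, whose offset compresses folds, 594 with no filter, 1277 at 1.5-fold, 63 at 3-fold and 88 with one probe a gene. No value of that count exists without an array, because it needs all 4. Under 75th percentile scaling it held 67 higher and 184 lower probes, against 92 and 141. The change between the ages called 3 probes with a trend, against 0 as reported. The mitfa MO minus WT count was 871, and 591 with no replicate block. Slide was not run as a block, because it equals age.

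Of 1912 values of the named genes under alternatives, 1906 kept their direction and their side of the threshold and 6 turned: hbbe2 to -0.06 with 75th percentile scaling, -0.08 without the control MO array at 50 hpf and -0.01 without the WT array at 50 hpf, hbae4 to 0.04 without the WT array at 48 hpf, and mitfa to -0.04 and hsp70l to -0.49 without the WT array at 50 hpf. With each array left out, the values ran from -0.04 to 0.13 for mitfa, from -0.23 to 0.04 for hbae4, from -0.08 to 0.18 for hbbe2 and from -0.49 to 2.09 for hsp70l. The cause was not tested. Changing the detection filter, the variance prior, the age term or the test left each difference unchanged by construction. So did leaving out a mitfa MO array or fitting the 4 arrays alone on the same values. Most named genes were also chosen for a shared sign at both ages. The share of values that kept their direction was therefore largely fixed in advance and does not measure robustness. Under 4 other settings of the values, chosen after the data were seen, the count in the more frequent direction of the cell cycle, ribosome biogenesis, oxidative phosphorylation, retina and melanophore lists stayed within 1.5 times of that reported. In the other direction these lists, the retina list aside, held 0 to 3 members.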
